A study of Mus musculus with 63 samples.

Results

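Peritoneal macrophages of male mice carrying the R1441C change in their own Lrrk2 gene were compared between 2 groups of RNA libraries that both bear an untreated name, 3 labelled old and 3 labelled young, 6 of the 63 libraries of the series. The old group holds the count columns named 2, 4 and 5 of its kind (knock-in males, age label old, 18 to 21 months per the design text), and the young group the columns named 2, 3 and 4 (knock-in males, age label young, 2 to 3 months). Columns were assigned by name alone, and no measured value was used to choose them. All these mice had received thioglycollate, which draws macrophages into the peritoneum, 72 h before their cells were taken, and buprenorphine against pain. The cells adhered to plastic and were then held for 18 h with 100 U of interferon-gamma (IFN-γ) or with vehicle (water), per the labels' protocols. For orientation, 5 old and 3 young knock-in male libraries named as IFN-γ-treated, 3 old and 3 young untreated wild-type (B6) males, and 5 old and 5 young untreated knock-in females are used beside them. For some gene lists, 5 old and 3 young untreated wild-type females are given as well. The study's stated aim was to learn how R1441C alters macrophage functions with sex and age. Old and young are used below for the label alone.

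The labels of the 3 old libraries contradict themselves. Their titles and column names call them untreated, and their treatment entry names interferon-gamma. Of the 16 groups, theirs was the only one in which these entries differed, and the 3 young libraries are untreated by every entry. If the treatment entry holds, the 2 groups differ in treatment as well as in age, and age and treatment cannot be told apart. The replicate numbers in titles (1, 2 and 3 in both groups) also differ from those in the column names, which are used here. The labels call the libraries replicates without tying each to its own animal. The p-values rest on the spread between libraries within a group, estimated over all 16 groups, and this spread may be technical.

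LRRK2 joins a kinase and a GTPase domain in a single protein. Its kinase acts on Rab proteins at endosomes and lysosomes. R1441C lies in the GTPase domain and is linked to inherited Parkinson's disease. IFN-γ binds a receptor made of IFNGR1 and IFNGR2, and the kinases JAK1 and JAK2 then activate transcription factors of the STAT family, which bind the motif TTCNNNGAA in gene promoters. IRF1, itself induced, binds repeats of GAAA such as GAAANNGAA, and together they raise GTPases that attack vacuoles of microbes, antigen presentation and nitric oxide production in macrophages.

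The 6 libraries held 91370272 to 102702300 counts each, and their values are given as CPM (each gene's counts scaled to an equal library size, after TMM), in the column order 2, 4 and 5 for old and 2, 3 and 4 for young. Values in brackets after a gene are its log2 change (old over young) with the standard error, and p-values are those of edgeR's quasi-likelihood test with Benjamini-Hochberg adjustment. Transcripts of the mitochondrial genome made up 0.946 to 1.06% of old libraries and at least 1.37% of each young library. Their share was 1.16 to 1.49% in old knock-in males named as IFN-γ-treated and 1.23 to 1.55% in untreated old wild-type males. The 20 most abundant genes took 16.1 to 16.7% of old and 21.5 to 27.0% of young libraries. Within the groups, old library 4 and young library 2 stood apart. Old library 4 had 7 genes at least 4-fold above and 11 at least 4-fold below both other old libraries, among 9989 genes with at least 5 CPM in a library. Young library 2 had 17 above and 13 below both other young libraries, among 10083 genes. The other 4 libraries had at most 1 such gene each way. Y-linked Ddx3y was at 44.3, 54.8 and 37.6 CPM in old, against 41.3, 47.6 and 49.6 CPM in young libraries, as the male label has it, and Xist, the transcript that silences one X chromosome in females, was at 0.305, 1.91 and 0.289 CPM in old, against 0.657, 13.8 and 3.64 CPM in young libraries (−2.85 ± 1.36, adjusted p = 0.109). Defining macrophage genes were abundant in every library, with 1130, 1350 and 1150 CPM of the growth factor receptor Csf1r in old libraries and 1280, 1090 and 1150 CPM in young libraries.

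The 3 old libraries were first placed among all 63 by 43 genes known to respond to IFN-γ. The mean log2 CPM of these genes was 8.77, 8.44 and 8.88 in the old libraries, against 3.38, 4.84 and 4.31 in the young libraries. It was 8.41 to 8.86 in the 13 other old libraries with an untreated entry, which agree in all their labels, and 8.42 to 8.90 in the 20 old libraries named as IFN-γ-treated. All 27 young libraries lay lower, at 2.42 to 6.14 in the 13 named as IFN-γ-treated and 2.12 to 5.42 in the 14 untreated. The level of IFN-γ response genes separated old from young libraries without overlap, and did not separate the treatment names at either age label. It gave the same range for either reading of the contradictory entry. In each of the 3 old libraries all 43 genes lay above the ranges of both young knock-in male groups, and 25, 17 and 19 of the 43 lay inside the range of the old knock-in males named as IFN-γ-treated.

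Transcripts of B cells, a cell type that thioglycollate exudates can hold, fell on the other side. The summed CPM of 21 B cell markers was 140, 150 and 162 in the old libraries, against 814, 450, 237, 634 and 235 in the old knock-in males named as IFN-γ-treated. It was 132 to 248 in the 13 other old untreated libraries and 216 to 2670 over all 20 old libraries named as IFN-γ-treated. In the young libraries it was 243 to 3740 with the IFN-γ name and 175 to 252 without it. On this measure the 3 old libraries lay below every old library named as IFN-γ-treated and inside the range of those called untreated by every entry. In each of them 19 of the 21 markers lay below the range of the 5 old knock-in males named as IFN-γ-treated. Against the 3 untreated old wild-type males, 18, 9 and 19 of the 21 lay above the range in old libraries 2, 4 and 5. Against the 5 untreated old knock-in females, 11, 16 and 7 lay below it. Distances between libraries were also taken, as the root mean square difference of log2 CPM over genes with a mean of at least 5 CPM. By median distance, old libraries 2 and 5 were closest to untreated old wild-type males (0.205 and 0.224). Old library 4 was closest to old wild-type males named as IFN-γ-treated (0.297). Its median distance was 0.322 to old knock-in males named as IFN-γ-treated, 0.388 to its own group and 0.414 to untreated old wild-type males. Whether the age label or the treatment label is the one to be read otherwise was not tested, and an effect of age cannot be told apart from an IFN-γ response in any comparison of old with young libraries below.

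**Figure D1:**
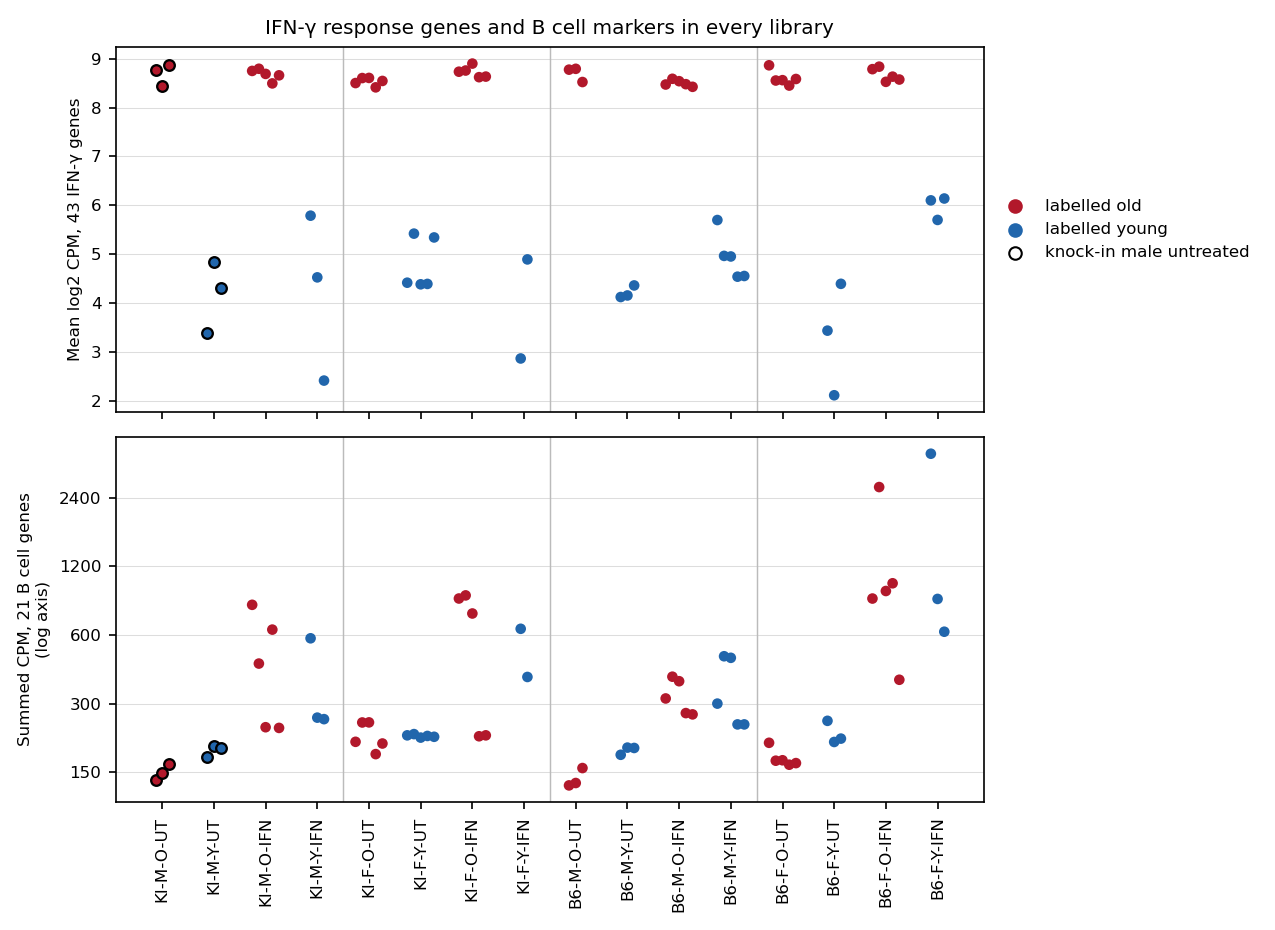
Each point is 1 library. The level of 43 IFN-γ response genes (mean log2 CPM) and the summed CPM of 21 B cell markers are shown for the 16 groups by their column names. The 36 old libraries lie at 8.41 to 8.90 and the 27 young at 2.12 to 6.14 on the first measure, and the 3 knock-in male old libraries lie at 140 to 162 CPM on the second.

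Of 22147 genes tested, 6911 (31.2%) were called at an adjusted p below 0.05 between old and young, 3625 (16.4%) higher and 3286 (14.8%) lower in old libraries. With library totals as the only scaling, 3171 were higher and 3632 lower, so which direction held more genes depended on the scaling. A log2 change of at least 1 in either direction was reached by 2933 genes (13.2%). The 3 old and 3 young values did not overlap in 8782 genes (39.7%). Over all genes tested, the median log2 change was −0.04 and the median absolute change 0.44, and the counts and medians of the gene lists below are to be read beside these values. Among called genes whose mean reached 5 CPM in old or young libraries and whose groups did not overlap, leaving out predicted genes, pseudogenes and receptor segments of lymphocytes, the largest increases were those of Nos2, Cxcl9, Cst7, Hcar2 and Dnase1l3, and the largest decreases those of Bex1, Cd28, Mamdc2, Slco2b1 and Htr2b.

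**Figure D2:**
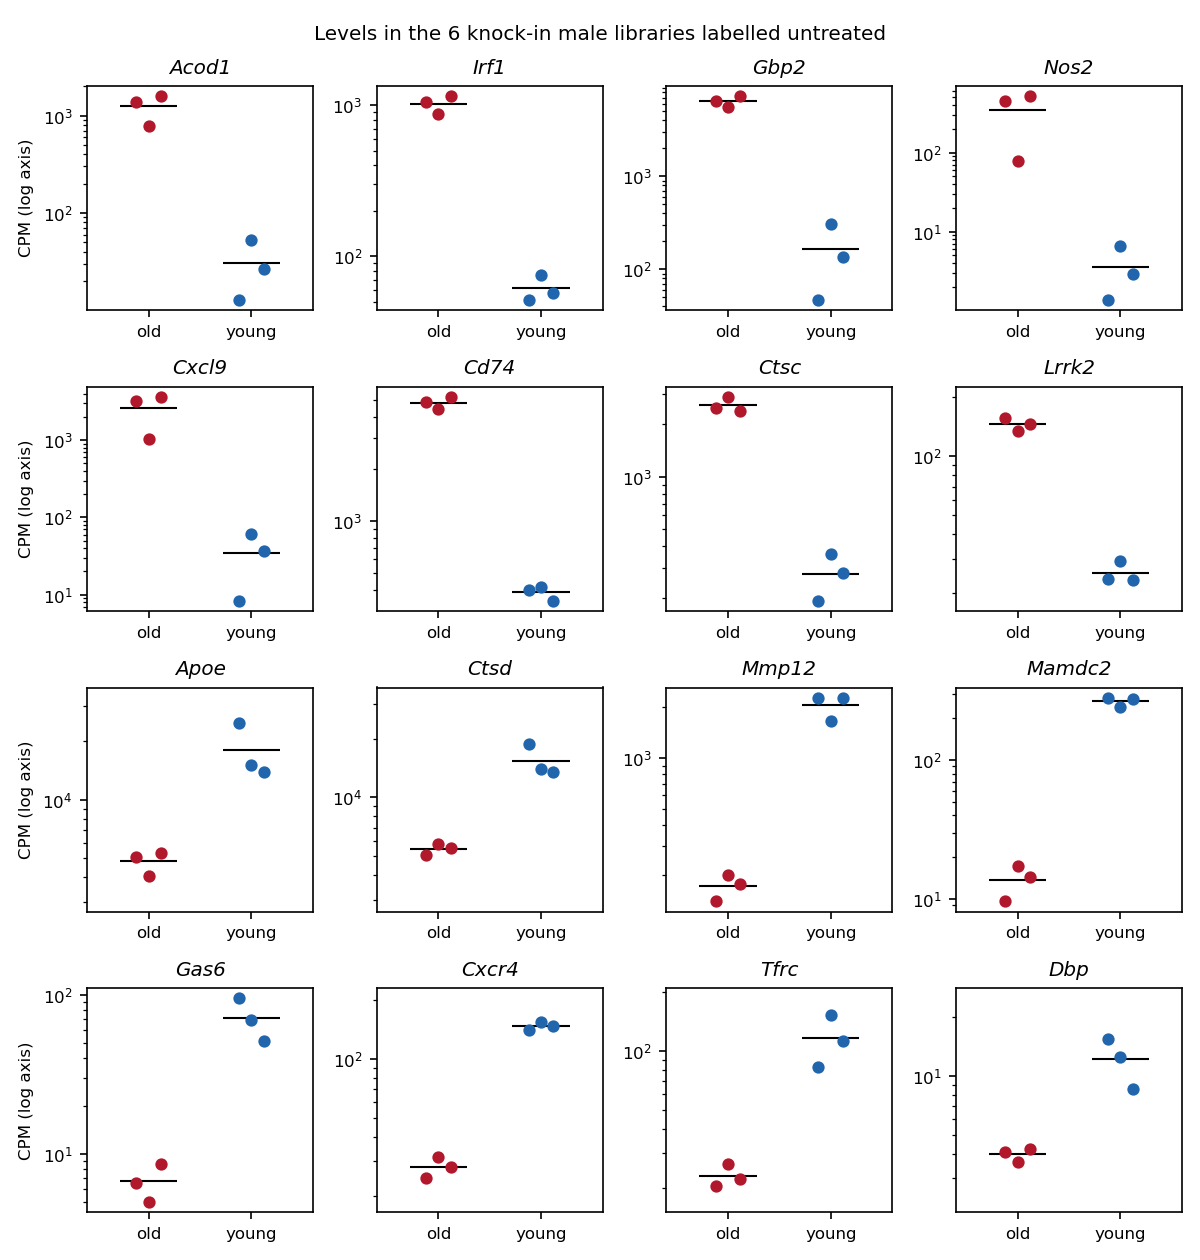
CPM (log axis) of 16 genes in the 3 old and 3 young libraries, 1 point a library, with the group mean as a line. Old and young points do not overlap in any of the 16, of which 8 (such as Irf1, Gbp2 and Lrrk2) are higher and 8 (such as Apoe, Mmp12 and Tfrc) lower in old libraries.

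All 43 IFN-γ response genes rose in old libraries, with a median log2 change of 4.59. In 4 of the 6 fits that leave out 1 library, 42 of them were called, and Ido1 was not called without old library 2 (adjusted p = 0.0821), old library 5 (0.133), young library 2 (0.0632) or young library 3 (0.174). This list was chosen with earlier results of these data known. Irf1, a transcription factor induced by IFN-γ, was at 1050, 878 and 1150 CPM in old, against 51.3, 75.1 and 57.2 CPM in young libraries (4.07 ± 0.33, adjusted p = 7.68e-15). Old and young libraries did not overlap. Gbp2, a guanylate-binding protein, was at 6370, 5620 and 7260 CPM in old, against 47, 310 and 135 CPM in young libraries, where young library 2 was lowest and young library 3 highest. Its log2 change was 5.29 ± 0.73 (adjusted p = 4.91e-08). Cxcl9, a chemokine that draws T cells, was at 3210, 1040 and 3630 CPM in old, against 8.35, 60.4 and 36.7 CPM in young libraries (6.22 ± 1.08, adjusted p = 6.45e-06), with old library 4 the lowest of the old libraries. Nos2, which makes nitric oxide, was at 446, 78.4 and 519 CPM in old, against 1.36, 6.49 and 2.92 CPM in young libraries (6.59 ± 1.38, adjusted p = 0.000138), again lowest in old library 4 among the old.

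Of 24 genes for the IFN-γ receptor, JAK kinases, STAT and IRF factors and their inhibitors, 15 rose and 2 fell, with a median change of 1.15. The receptor chains did not follow their targets. Ifngr1 was at 108, 145 and 113 CPM in old, against 180, 181 and 180 CPM in young libraries and fell (−0.56 ± 0.18, adjusted p = 0.0145), while Ifngr2 was at 195, 181 and 217 CPM in old, against 195, 188 and 208 CPM in young libraries (0.00 ± 0.07, adjusted p = 0.986), with overlapping groups. Of the kinases, Jak2 rose (1.23 ± 0.15, adjusted p = 1.52e-09), and Jak1 was not called (0.05 ± 0.09, adjusted p = 0.753). Stat2, which acts in type I interferon signalling, rose by 2.28 ± 0.12, Stat3 by 1.20 ± 0.08 and Irf8, a factor of macrophage differentiation, by 1.91 ± 0.15. Among the brakes of the pathway, the suppressor Socs1 was at 235, 184 and 217 CPM in old, against 2.02, 11.8 and 6.11 CPM in young libraries (4.99 ± 0.60, adjusted p = 1.29e-09), Socs3 rose by 2.42 ± 0.21 and the phosphatase Ptpn2 by 1.19 ± 0.07. Irf3, which acts downstream of nucleic acid sensors, fell (−0.37 ± 0.12, adjusted p = 0.0114). Neither decrease held in every leave-one-out fit. Ifngr1 was not called without old library 2 (−0.48, adjusted p = 0.082) or old library 5 (−0.51, adjusted p = 0.0659), nor Irf3 without old library 4 (−0.29, adjusted p = 0.104) or young library 2 (−0.18, adjusted p = 0.285).

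The GTPases that IFN-γ induces rose without exception among those tested. All 11 guanylate-binding protein genes, with a median of 5.08, and all 8 immunity-related GTPase genes, with a median of 4.97, were called higher. Of the first family, Gbp2b was at 127, 116 and 142 CPM in old, against 0.726, 4.27 and 2.81 CPM in young libraries (5.61 ± 0.65, adjusted p = 5.05e-10). Gbp5 was at 1080, 806 and 1140 CPM in old, against 7.12, 45.2 and 21.9 CPM in young libraries (5.35 ± 0.74, adjusted p = 4.98e-08). Gbp3, Gbp7, Gbp9 and Gbp10 changed by 4.60, 4.58, 3.94 and 5.12 on the log2 scale. Of the second family, Tgtp1 was at 690, 503 and 852 CPM in old, against 4.16, 25.7 and 18.3 CPM in young libraries (5.41 ± 0.82, adjusted p = 4.11e-07) and its near-copy Tgtp2 at 1300, 1130 and 1490 CPM in old, against 8.17, 54.2 and 33.5 CPM in young libraries (5.35 ± 0.78, adjusted p = 1.94e-07), so reads of these near-identical genes may be split between them. Igtp (Irgm3), a regulator GTPase on lipid droplets and vacuoles, was at 346, 378 and 376 CPM in old, against 15.8, 27.4 and 21.1 CPM in young libraries (4.10 ± 0.33, adjusted p = 4.56e-15). Irgm1, a regulator on host membranes, was at 918, 978 and 1010 CPM in old, against 38.8, 76.9 and 57.4 CPM in young libraries (4.07 ± 0.28, adjusted p = 3.77e-17). Irgm2 and Ifi47 changed by 3.44 ± 0.23 and 4.60 ± 0.40. In all of these genes the lowest old value was several times the highest young value.

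The promoters of some of these genes are printed because they hold the letters that STAT and IRF factors bind. Promoters were available for 27 of the 43 IFN-γ response genes in a RefSeq table of the build GRCm38.p6, and the 250 bases before the start were searched on both strands. GAAANNGAA was found in 14 of the 27 (51.9%) and TTCNNNGAA, which reads the same on both strands, in 12 (44.4%), against 8.18% and 8.13% of all 27025 genes in the table. The same shares were 10.9% and 7.88% in 2537 genes called higher and 6.34% and 6.39% in 2270 called lower. A match is a description of the letters and not a bound site. Below are the last 100 bases before the start, 5′ to 3′ on the strand of the gene, with matches on either strand in capitals. Gbp2 lies at chr3:142620563-142620662 (+), Tgtp1 at chr11:48992247-48992346 (−), Igtp at chr11:58199456-58199555 (+), Irgm1 at chr11:48871421-48871520 (−), Irf1 (1 of its 2 starts) at chr11:53769914-53770013 (+) and Serpina3g at chr12:104236047-104236146 (+).
Gbp2: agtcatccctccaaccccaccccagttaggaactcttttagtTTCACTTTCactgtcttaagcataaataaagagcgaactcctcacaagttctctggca
Tgtp1: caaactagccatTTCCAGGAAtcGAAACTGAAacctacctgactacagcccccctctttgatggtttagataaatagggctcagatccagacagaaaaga
Igtp: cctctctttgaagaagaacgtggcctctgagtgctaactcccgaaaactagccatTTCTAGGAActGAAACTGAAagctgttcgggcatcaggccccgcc
Irgm1: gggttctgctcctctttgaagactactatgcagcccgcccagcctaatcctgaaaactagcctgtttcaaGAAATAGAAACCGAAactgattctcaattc
Irf1: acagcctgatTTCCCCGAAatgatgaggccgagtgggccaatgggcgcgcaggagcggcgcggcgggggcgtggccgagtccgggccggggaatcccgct
Serpina3g: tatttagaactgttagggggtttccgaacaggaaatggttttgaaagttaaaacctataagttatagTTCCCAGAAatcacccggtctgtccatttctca
In the windows of Tgtp1 and Igtp, GAAANNGAA and TTCNNNGAA stand side by side, 77 and 88 bases before the start of Tgtp1 and 34 and 45 bases before that of Igtp. The Irgm1 window holds 2 overlapping GAAANNGAA matches, and those of Irf1 and Serpina3g hold TTCNNNGAA alone. Serpina3g, an inhibitor of cathepsin proteases, was at 482, 294 and 523 CPM in old, against 1.84, 20.4 and 6.48 CPM in young libraries (5.50 ± 0.80, adjusted p = 1.41e-07). Among the 15 largest increases of the genes with at least 5 CPM described above, 9 had a promoter in the table, of which 6 held GAAANNGAA and 5 TTCNNNGAA. Among the 15 largest decreases of such genes, 10 had a promoter, of which 1 and 2 did. The genes were chosen by their change in these libraries, so the shares are descriptions.

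Genes of the type I interferon response, an antiviral programme, rose as well. All 35 were called higher, with a median of 2.32. Parp9 and Dtx3l, which act as a pair in DNA repair and interferon signalling, changed by 2.35 ± 0.10 and 2.51 ± 0.12. Bst2, which tethers virus particles to the membrane, was at 332, 265 and 331 CPM in old, against 85.1, 84.7 and 68.6 CPM in young libraries (1.96 ± 0.11, adjusted p = 3.49e-20). Ifit1, a sensor of foreign RNA ends, was at 59.9, 63.5 and 73.7 CPM in old, against 4.42, 5.85 and 3.82 CPM in young libraries (3.80 ± 0.33, adjusted p = 7.96e-14). No old value overlapped a young one in these 4 genes. All 11 tested members of the Ifi200 family of DNA-binding proteins, of 12 listed, also rose (median 2.49), among them Ifi204 (2.44 ± 0.12, adjusted p = 6.40e-22) and Ifi211 (3.37 ± 0.17, adjusted p = 7.78e-22).

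Antigen presentation was higher in old libraries for both classes of MHC molecule. Of 24 class I genes, 23 rose and none fell, with a median of 2.03, and of 16 class II genes 11 rose and none fell, with a median of 2.93 (1 fell without young library 3, Rfxap, which is part of the class II promoter complex). Cd74, the invariant chain of class II, was at 4870, 4410 and 5200 CPM in old, against 398, 414 and 345 CPM in young libraries (3.65 ± 0.30, adjusted p = 1.28e-14). The class II chains H2-Aa and H2-Ab1 changed by 3.61 ± 0.30 and 3.73 ± 0.30. Ciita, the master regulator of class II genes, was at 438, 422 and 434 CPM in old, against 9.6, 28.2 and 17.2 CPM in young libraries (4.56 ± 0.45, adjusted p = 5.42e-12), with every old library above all young ones. H2-DMa and H2-DMb1, the chaperone that loads peptide on class II, changed by 3.40 ± 0.24 and 3.10 ± 0.19. Ctss, the protease that trims the invariant chain, was at 9260, 12000 and 10500 CPM in old, against 10000, 9750 and 10700 CPM in young libraries, with overlapping groups.

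On the class I side, the light chain B2m was at 6090, 5710 and 6410 CPM in old, against 2130, 1850 and 1920 CPM in young libraries (1.63 ± 0.10, adjusted p = 2.31e-19), and the heavy chain H2-K1 at 3970, 3030 and 3900 CPM in old, against 966, 930 and 813 CPM in young libraries (2.01 ± 0.13, adjusted p = 7.03e-18). Tap1, a chain of the peptide pump of the endoplasmic reticulum, was at 734, 634 and 735 CPM in old, against 58.3, 80.4 and 59.3 CPM in young libraries (3.41 ± 0.20, adjusted p = 4.15e-20). The immunoproteasome subunits Psmb8, Psmb9 and Psmb10 changed by 2.45, 2.66 and 2.52, and the proteasome activators Psme1 and Psme2 by 2.03 and 2.74 on the log2 scale. Nlrc5, the regulator of class I genes, was at 247, 225 and 232 CPM in old, against 22, 35.3 and 23.8 CPM in young libraries (3.12 ± 0.23, adjusted p = 1.44e-16). Calr, a chaperone of class I folding, rose as well (0.87 ± 0.15, adjusted p = 4.41e-06).

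Of 16 costimulatory and checkpoint genes, 10 rose and 3 fell, with a median of 1.34. Cd274, which encodes PD-L1, was at 937, 771 and 1000 CPM in old, against 77.3, 107 and 97.9 CPM in young libraries (3.26 ± 0.20, adjusted p = 2.82e-19). Its relative Pdcd1lg2 (PD-L2) was at 49.5, 40.6 and 53.2 CPM in old, against 0.945, 3.44 and 1.03 CPM in young libraries (4.71 ± 0.41, adjusted p = 1.12e-13). Cd40, which receives help from T cells, was at 147, 72 and 165 CPM in old, against 11.2, 10.8 and 8.6 CPM in young libraries (3.65 ± 0.36, adjusted p = 3.99e-12). Cd86, a ligand of CD28, was at 116, 78.1 and 129 CPM in old, against 15.2, 12.4 and 10.9 CPM in young libraries (3.07 ± 0.33, adjusted p = 6.86e-11). Both had their lowest old value in library 4. Cd80, the other ligand of CD28, was at 15.6, 12.4 and 17.7 CPM in old, against 13.3, 10.6 and 11.9 CPM in young libraries, with overlapping groups (0.35 ± 0.16, adjusted p = 0.1), and was called without old library 4 (0.49, adjusted p = 0.037). The checkpoint gene Vsir, which encodes VISTA, fell and was at 229, 307 and 234 CPM in old, against 784, 706 and 732 CPM in young libraries (−1.53 ± 0.20, adjusted p = 1.11e-08). Cd276 (−2.45 ± 0.50, adjusted p = 8.85e-05) and Cd48 (−0.93 ± 0.12, adjusted p = 2.04e-08) fell as well.

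Chemokines and cytokines moved both ways. Of 13 CXC chemokine genes, 4 rose and 3 (Cxcl1, Cxcl12 and Cxcl14) fell, and of 12 CC chemokine genes 7 rose and 2 fell. Cxcl10, a ligand of CXCR3 on T cells, was at 154, 141 and 151 CPM in old, against 1.11, 7.11 and 3.73 CPM in young libraries (5.21 ± 0.67, adjusted p = 7.48e-09). Ccl5, which draws T cells and monocytes, was at 254, 86.1 and 256 CPM in old, against 6.84, 6.16 and 5.63 CPM in young libraries (5.00 ± 0.73, adjusted p = 1.52e-07). Ccl2, a chemokine for monocytes, was at 52.3, 42.5 and 45.6 CPM in old, against 13.3, 16.7 and 11.3 CPM in young libraries (1.77 ± 0.24, adjusted p = 2.03e-08). Against these, Cxcl14, a chemokine of resting tissues, was at 7.89, 10.9 and 6.31 CPM in old, against 33, 22.1 and 30.4 CPM in young libraries (−1.77 ± 0.27, adjusted p = 5.62e-07). Ccl9 was at 50.7, 43.2 and 57.1 CPM in old, against 240, 111 and 138 CPM in young libraries (−1.70 ± 0.38, adjusted p = 0.000391). Ccl3 (−1.05 ± 0.21, adjusted p = 8.26e-05) and Cxcl1, which draws neutrophils (−1.22 ± 0.42, adjusted p = 0.0198), fell. Cxcl1 was not called without old library 4 (adjusted p = 0.0636), old library 5 (0.0847) or young library 2 (0.0638), and without old library 5 the list had 1 CXC chemokine called lower. In the same list Cxcl12 was not called without old library 2 (adjusted p = 0.118), old library 5 (0.169), young library 3 (0.0963) or young library 4 (0.193). Of 10 chemokine receptors, 3 rose, Ccr2 and Ccr7 among them, and 3 fell (Cx3cr1, Cxcr3 and Cxcr4). Of these, Ccr7 was not called without old library 5 (adjusted p = 0.0505), young library 2 (0.0594), young library 3 (0.0617) or young library 4 (0.051), and Cxcr3 was not called without old library 2 (adjusted p = 0.124), old library 5 (0.134) or young library 3 (0.0619). Ccr2, the receptor of blood monocytes, was at 64.9, 145 and 59.1 CPM in old, against 20.2, 32.9 and 42.3 CPM in young libraries (1.50 ± 0.37, adjusted p = 0.00117), with old library 4 the highest. Cxcr4, which retains cells by CXCL12, was at 24.6, 31.5 and 28 CPM in old, against 141, 154 and 148 CPM in young libraries (−2.40 ± 0.12, adjusted p = 1.29e-21), with no overlap.

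Of 19 tested cytokine genes, of 20 listed, 7 rose and 1 fell. Tnf was at 111, 60.1 and 126 CPM in old, against 8.56, 9.71 and 9.49 CPM in young libraries (3.42 ± 0.38, adjusted p = 1.78e-10). Il12b, a chain of IL-12 that drives IFN-γ production, was at 2.57, 1.99 and 2.81 CPM in old, against 0.0461, 0.164 and 0.19 CPM in young libraries (4.17 ± 0.59, adjusted p = 8.14e-08), a gene with few counts in young libraries. Il27 rose by 3.90 ± 0.37, Il18bp, a decoy for IL-18, by 4.15 ± 0.35 and Tnfsf10, the death ligand TRAIL, by 4.11 ± 0.36. Il1b was at 3.36, 4.56 and 3.56 CPM in old, against 2.71, 1.53 and 1.75 CPM in young libraries and was not called (0.94 ± 0.60, adjusted p = 0.249), except with the 6 libraries fitted alone (0.0251), nor was Il6 called, at 0.305, 0.239 and 0.182 CPM in old, against 0.0115, 0.164 and 0.35 CPM in young libraries. Osm, a cytokine of the IL-6 family, was at 2.25, 3.74 and 2.48 CPM in old, against 7.54, 11.3 and 9.56 CPM in young libraries and was the member that fell (−1.74 ± 0.18, adjusted p = 3.40e-11). Ifng itself was at 0.142, 0.0698 and 0.203 CPM in old, against 0.0576, 0 and 0 CPM in young libraries (2.85 ± 1.27, adjusted p = 0.0846) and was not called. It was called without young library 2, which left the young group at 0 (adjusted p = 0.014), and against the young libraries named as IFN-γ-treated (0.011).

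Genes of arginine use and glycolysis mostly rose. Of 15 genes of arginine, itaconate and tryptophan use, 10 rose and 2 (Asl and Pts) fell, with a median of 1.69. Acod1, which makes itaconate, was at 1390, 783 and 1580 CPM in old, against 12.8, 52.8 and 26.8 CPM in young libraries (5.34 ± 0.70, adjusted p = 1.41e-08). Ass1, which recycles citrulline to arginine, was at 257, 165 and 249 CPM in old, against 11.7, 21.2 and 16.7 CPM in young libraries (3.76 ± 0.45, adjusted p = 1.47e-09). Arg1, which competes for arginine and is a marker of alternative activation, also rose, at 246, 149 and 238 CPM in old, against 96.4, 51.5 and 48.7 CPM in young libraries (1.69 ± 0.56, adjusted p = 0.0156), but not without young library 3 (1.54, adjusted p = 0.0677) or 4 (1.51, adjusted p = 0.0723). Without old library 2 or 4 or young library 2, 1 gene of this list was called lower, since Asl was not called without old library 2 (adjusted p = 0.0566), old library 4 (0.131) or young library 2 (0.205). Of 20 glycolysis genes, 16 rose and none fell (median 0.71). Pfkp, which commits sugar to glycolysis, was at 349, 247 and 363 CPM in old, against 68.4, 88.6 and 82 CPM in young libraries (2.00 ± 0.16, adjusted p = 7.72e-15), Hk2 changed by 1.52 ± 0.15, Hk3 by 1.67 ± 0.18 and Pgk1 by 1.37 ± 0.19. Old library 4 had the lowest Pfkp and Pgk1 of the old libraries, and all old values exceeded the young ones. Of 18 genes of the citrate cycle and pyruvate entry, 9 rose and 3 fell. The 3 were Idh1 (−1.05 ± 0.16, adjusted p = 2.88e-07), Idh2 (−0.45 ± 0.14, adjusted p = 0.00819) and Pdk2 (−0.69 ± 0.14, adjusted p = 8.57e-05), and citrate synthase, Cs, rose by 0.72 ± 0.09.

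The respiratory chain split by the genome that encodes it. Of 75 nuclear subunit genes, 50 rose and none fell, with a median of 0.47. Of the 13 protein genes of the mitochondrial genome, none rose and 6 fell, with a median of −0.37. With old knock-in males named as IFN-γ-treated in place of the young libraries, the median of these 13 was −0.50, with none called. Cycs, which encodes cytochrome c, was at 195, 159 and 204 CPM in old, against 56.5, 63 and 73 CPM in young libraries (1.53 ± 0.09, adjusted p = 2.19e-19), and Atp5b, a catalytic subunit of ATP synthase, rose by 0.88 ± 0.09. From the mitochondrial genome, mt-Atp6 was at 612, 726 and 802 CPM in old, against 1220, 1040 and 1090 CPM in young libraries (−0.64 ± 0.21, adjusted p = 0.0125), mt-Cytb at 611, 631 and 695 CPM in old, against 912, 938 and 969 CPM in young libraries (−0.54 ± 0.16, adjusted p = 0.00734), and mt-Co1 at 2710, 2630 and 2800 CPM in old, against 3240, 3440 and 3140 CPM in young libraries, without a call (−0.27 ± 0.17, adjusted p = 0.258) except against the young libraries named as IFN-γ-treated (−0.67, adjusted p = 0.00209). The count of 6 was 3 without old library 2 or 4 and 2 without young library 2, and mt-Atp6 was not called without old library 2 (−0.55, adjusted p = 0.0802) or young library 2 (−0.58, adjusted p = 0.0536). Of 26 stress response genes (unfolded proteins and the ATF4 branch), 17 rose and 1, Atf3 (−0.58 ± 0.17, adjusted p = 0.00547), fell (median 0.69). Hspa5, the main chaperone of the endoplasmic reticulum, was at 1270, 1410 and 1250 CPM in old, against 575, 659 and 719 CPM in young libraries (1.01 ± 0.12, adjusted p = 1.83e-09), Creld2 changed by 1.36 ± 0.11, and Asns, a target of ATF4, by 1.93 ± 0.23.

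**Figure D3:**
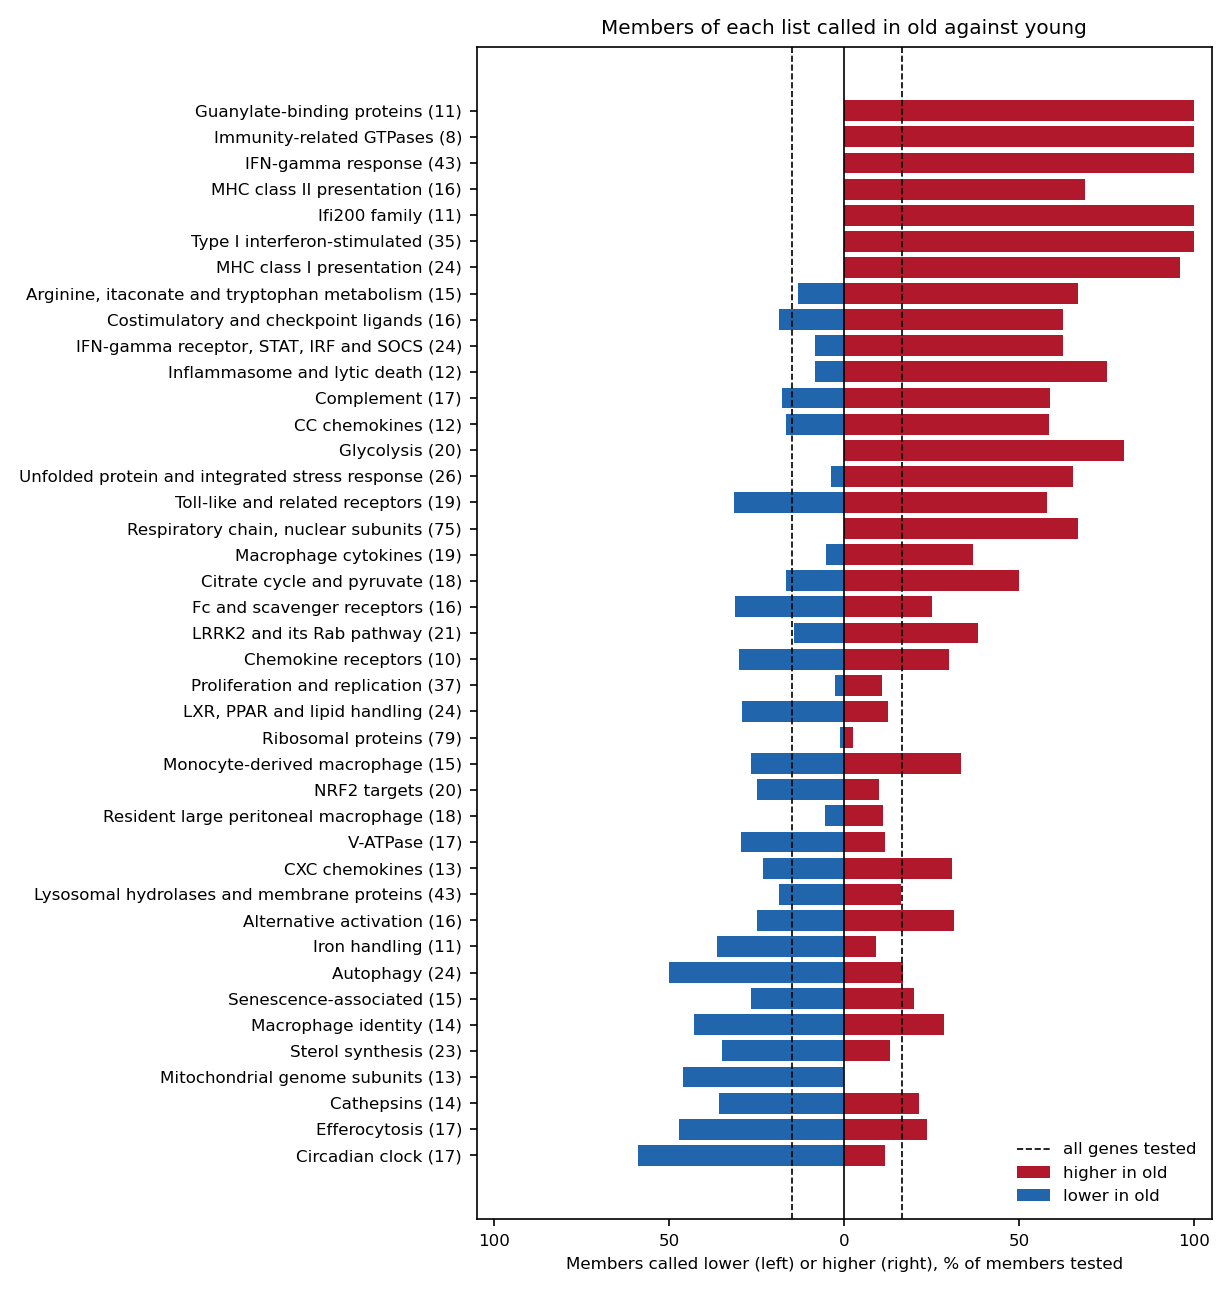
Share of the tested members of each gene list (number tested in brackets) called higher or lower in old libraries, with dashed lines at the shares of all genes tested (16.4% higher, 14.8% lower). The type I interferon, IFN-γ response and GTPase lists hold increases alone, and autophagy and clock genes mostly decreases.

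Genes for sensing and clearing microbes and dead cells were split as well. Of 17 complement genes, 10 rose and 3 fell (median 1.03). C3, the central component, was at 1900, 1050 and 2020 CPM in old, against 63.6, 144 and 118 CPM in young libraries (3.93 ± 0.51, adjusted p = 1.35e-08), with old library 4 lowest of the old, and C1ra, a protease of the classical pathway, at 250, 167 and 244 CPM in old, against 12.5, 18.4 and 13.7 CPM in young libraries (3.89 ± 0.30, adjusted p = 1.00e-15). The complement receptors C5ar1 (−1.38 ± 0.26, adjusted p = 2.08e-05) and C3ar1 and the inhibitor Cd59a fell. C3ar1 was not called without old library 2 (−1.16, adjusted p = 0.0749) or 5 (−1.17, adjusted p = 0.0727). Of 16 Fc and scavenger receptors, 4 rose (2 without young library 3) and 5 fell. Fcgr4, an activating Fc receptor, was at 363, 441 and 365 CPM in old, against 63.7, 82.3 and 70.8 CPM in young libraries (2.43 ± 0.25, adjusted p = 1.28e-11). Cd36, a receptor for oxidized lipids and apoptotic cells, was at 887, 1140 and 833 CPM in old, against 1550, 1660 and 2000 CPM in young libraries (−0.87 ± 0.21, adjusted p = 0.000783). Mrc1, the mannose receptor (−1.41 ± 0.40, adjusted p = 0.00474), and Stab1 (−1.69 ± 0.31, adjusted p = 1.42e-05) fell.

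Of 17 efferocytosis genes, which serve the uptake of dead cells, 4 rose and 8 fell, with a median of −0.61 (−0.35 without young library 4). Gas6, a bridge between dead cells and TAM receptors, was at 6.53, 4.96 and 8.61 CPM in old, against 94.9, 69.2 and 51.2 CPM in young libraries (−3.42 ± 0.33, adjusted p = 2.83e-12). Mfge8, another bridging protein, was at 324, 287 and 364 CPM in old, against 1580, 1190 and 1190 CPM in young libraries (−2.02 ± 0.44, adjusted p = 0.000253). Itgb3, a chain of the integrin that binds it, was at 1.75, 3.06 and 2.32 CPM in old, against 10.1, 18.5 and 16.5 CPM in young libraries (−2.66 ± 0.30, adjusted p = 3.46e-10). The TAM receptors Axl and Mertk rose. Axl was at 488, 354 and 502 CPM in old, against 59.5, 77.2 and 81.8 CPM in young libraries (2.62 ± 0.28, adjusted p = 5.72e-11). Mertk was at 314, 221 and 319 CPM in old, against 173, 182 and 166 CPM in young libraries (0.71 ± 0.19, adjusted p = 0.00222). Timd4, a phosphatidylserine receptor of resident macrophages, was at 69, 10.9 and 82.7 CPM in old, against 3.92, 2.52 and 1.36 CPM in young libraries (4.39 ± 1.06, adjusted p = 0.000831), and was far lower in old library 4 than in the other old libraries. Of 19 Toll-like receptor genes and relatives, 11 rose and 6 fell, of which 2 were called without old library 2 and 3 without old library 5. Tlr9, a receptor for DNA in endosomes, was at 46.4, 69.8 and 40.3 CPM in old, against 4.79, 11.3 and 7.49 CPM in young libraries (2.73 ± 0.26, adjusted p = 1.42e-12), Nod1 changed by 2.35 ± 0.13, and Tlr7 (−0.76 ± 0.18, adjusted p = 0.000703) and Cd14 (−1.24 ± 0.35, adjusted p = 0.00454) fell. Of 12 genes of inflammasomes and lytic death, 9 rose and 1, Naip5 (−1.22 ± 0.13, adjusted p = 1.83e-11), fell. Casp4, the sensor of cytosolic lipopolysaccharide, was at 77.7, 64.5 and 99.1 CPM in old, against 15.6, 13.2 and 15.7 CPM in young libraries (2.44 ± 0.17, adjusted p = 2.36e-17). Mlkl, the effector of necroptosis, was at 104, 87.8 and 111 CPM in old, against 11.6, 18 and 15.5 CPM in young libraries (2.74 ± 0.14, adjusted p = 6.40e-22).

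Lrrk2, the gene that carries the R1441C change, was at 157, 134 and 146 CPM in old, against 23.5, 29.1 and 23.4 CPM in young libraries. Its log2 change was 2.52 ± 0.32 (adjusted p = 5.63e-09), and the lowest old value was several times the highest young one. In the libraries named as IFN-γ-treated it was at 120, 166, 108, 101 and 104 CPM in old and at 47.6, 28.7 and 23.8 CPM in young knock-in males. Of 21 genes of LRRK2 and its Rab pathway, 8 rose and 3 fell, with a median of 0.17 (0.09 without young library 2). Among the Rab proteins that LRRK2 phosphorylates, Rab43 was at 22, 15.4 and 17.1 CPM in old, against 3.7, 7.35 and 4.46 CPM in young libraries (1.81 ± 0.19, adjusted p = 5.47e-11), Rab10 at 208, 176 and 218 CPM in old, against 122, 129 and 135 CPM in young libraries (0.64 ± 0.13, adjusted p = 0.000138) and Rab12 at 78.2, 52.6 and 78.1 CPM in old, against 48.5, 45.3 and 45 CPM in young libraries (0.59 ± 0.12, adjusted p = 6.17e-05). Rab8a rose by 0.23 ± 0.08 (adjusted p = 0.0215), a call lost without old library 2 (0.0565), old library 5 (0.103) or young library 3 (0.0882). Rab35 was not called (0.17 ± 0.07, adjusted p = 0.0553), except without old library 4 (adjusted p = 0.0116) or young library 2 (0.0215), with RLE size factors (0.0309), by DESeq2 (0.0208) or against the young libraries named as IFN-γ-treated (0.0187). The 3 members that fell were Rab29 (−0.47 ± 0.10, adjusted p = 0.000148), which recruits LRRK2 to membranes, and Rilpl2 (−1.03 ± 0.20, adjusted p = 3.88e-05) and Rilpl1 (−0.51 ± 0.18, adjusted p = 0.026), which bind phosphorylated Rab proteins. Rilpl2 was at 158, 144 and 172 CPM in old, against 296, 341 and 329 CPM in young libraries, with no overlap, whereas Rilpl1 was not called without old library 4 (−0.33, adjusted p = 0.231) or young library 2 (−0.31, adjusted p = 0.256). Rab32 and Rab38, relatives of Rab29, rose by 0.62 ± 0.17 and 1.30 ± 0.30, and the paralogue Lrrk1 was at 64.3, 70.8 and 62 CPM in old, against 35.6, 36.7 and 35.5 CPM in young libraries (0.87 ± 0.11, adjusted p = 9.64e-09).

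**Figure D4:**
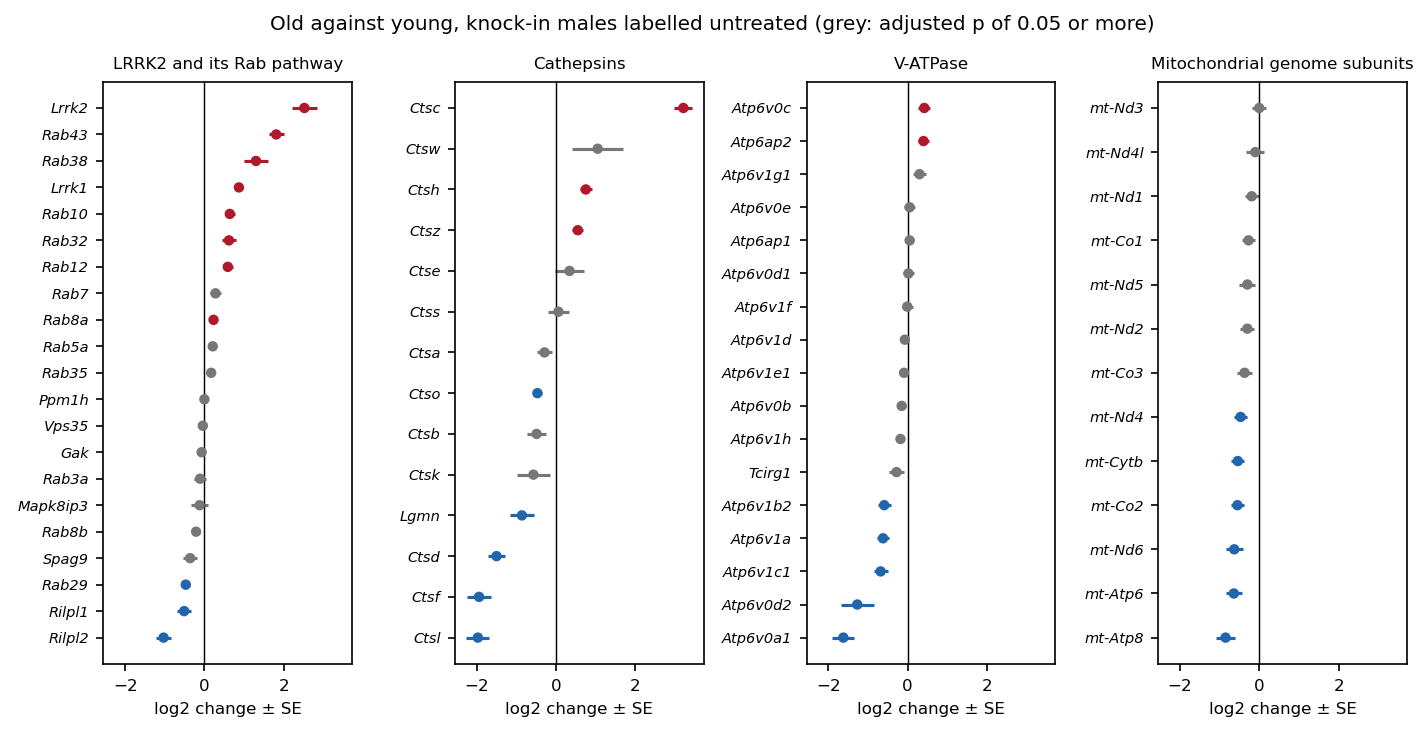
Log2 change (old over young) with its standard error for members of the LRRK2 and Rab, cathepsin, V-ATPase and mitochondrial genome lists. Lrrk2 and Ctsc stand highest, and Ctsl, Ctsf and Atp6v0a1 lowest. Grey points were not called.

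Proteases of the lysosome were not moved as a block. Of 14 cathepsin genes, 3 (Ctsc, Ctsh and Ctsz) rose and 5 (Ctsd, Ctsf, Ctsl, Ctso and Lgmn) fell (median −0.38). The last of these, an asparaginyl protease, had the weakest call, and Lgmn was not called without old library 2 (adjusted p = 0.123), old library 5 (0.123), young library 2 (0.0561), young library 3 (0.052) or young library 4 (0.0662). Ctsc, which activates granule proteases, was at 2480, 2870 and 2380 CPM in old, against 194, 359 and 279 CPM in young libraries (3.21 ± 0.23, adjusted p = 1.14e-16). Ctsd, an abundant aspartic protease, was at 5080, 5770 and 5480 CPM in old, against 18700, 14000 and 13500 CPM in young libraries (−1.50 ± 0.22, adjusted p = 1.80e-07). Ctsl was at 882, 1040 and 921 CPM in old, against 3570, 3340 and 4220 CPM in young libraries (−1.97 ± 0.29, adjusted p = 1.87e-07). Ctsb was at 13300, 15200 and 14400 CPM in old, against 21000, 19500 and 19800 CPM in young libraries and was not called (−0.49 ± 0.24, adjusted p = 0.115), although its groups did not overlap. With the 6 libraries fitted alone it was called (adjusted p = 0.0065). Of 43 lysosomal hydrolase and membrane genes, 7 rose and 8 fell (median −0.13, −0.20 without old library 5 and −0.07 without old library 4 or young library 2). The share called, 34.9%, was near the 31.2% of all genes tested. Ppt1, which removes fatty acyl groups from proteins, was at 775, 731 and 856 CPM in old, against 151, 159 and 164 CPM in young libraries (2.32 ± 0.14, adjusted p = 1.16e-19). Galc (−1.17 ± 0.17, adjusted p = 2.62e-07) and Sgsh (−1.42 ± 0.21, adjusted p = 3.26e-07), which degrade galactosylceramide and heparan sulfate, fell. Atp13a2, a lysosomal polyamine pump linked to an inherited parkinsonism, fell (−0.41 ± 0.09, adjusted p = 0.000361).

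Of 17 V-ATPase genes, which acidify lysosomes, 2 rose and 5 fell. Their median was −0.09, close to that of all genes, and lay between −0.21 and 0.01 when 1 library was left out, with 0.01 without old library 4. Atp6v0a1 was at 172, 245 and 175 CPM in old, against 559, 644 and 614 CPM in young libraries (−1.62 ± 0.28, adjusted p = 4.34e-06), Atp6v0d2, a subunit of osteoclasts and macrophages, changed by −1.27 ± 0.42 and Atp6v1a by −0.62 ± 0.16. The 2 that rose were Atp6v0c (0.42 ± 0.15, adjusted p = 0.0272) and Atp6ap2 (0.40 ± 0.14, adjusted p = 0.0239). Atp6v0c was not called without old library 2 (adjusted p = 0.0966), old library 5 (0.091), young library 3 (0.0599) or young library 4 (0.108), Atp6ap2 without old library 5 (0.0535) or young library 2 (0.101), and Atp6v0d2 without old library 2 (0.0545). Of 24 autophagy genes, 4 rose and 12 fell (median −0.25). Map1lc3a, which encodes a form of LC3, was at 10.3, 9.06 and 9.5 CPM in old, against 23.7, 16.8 and 15.4 CPM in young libraries (−0.95 ± 0.18, adjusted p = 3.78e-05), Gabarapl1 at 116, 88 and 136 CPM in old, against 243, 174 and 182 CPM in young libraries (−0.82 ± 0.16, adjusted p = 3.93e-05) and the starting kinase Ulk1 at 32.8, 37.3 and 28.8 CPM in old, against 51.7, 52.6 and 47.5 CPM in young libraries (−0.62 ± 0.09, adjusted p = 2.71e-07). Tfe3, a driver of lysosome and autophagy genes, fell (−0.25 ± 0.07, adjusted p = 0.0029), and its relative Tfeb was not called (−0.36 ± 0.18, adjusted p = 0.115), except with library totals as the only scaling (0.0471). Against the rest, Atg16l1, Atg9a, Uvrag and Atg5 rose, by 0.49, 0.44, 0.32 and 0.21 on the log2 scale. Atg9a was not called without young library 2 (adjusted p = 0.131), Uvrag without old library 4 (0.0533), and Atg5 without old library 2 (0.0579), old library 5 (0.102), young library 2 (0.0912) or young library 3 (0.0786).

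The decreases described next were among the largest of genes with at least 5 CPM in young libraries. Mmp12, the macrophage elastase, was at 140, 200 and 177 CPM in old, against 2280, 1650 and 2280 CPM in young libraries (−3.58 ± 0.23, adjusted p = 7.08e-19). Mmp27 was at 1.82, 3.13 and 2.95 CPM in old, against 43.7, 36.8 and 40.9 CPM in young libraries (−3.94 ± 0.31, adjusted p = 3.37e-15). Mamdc2, a secreted proteoglycan, was at 9.57, 17.3 and 14.3 CPM in old, against 282, 242 and 277 CPM in young libraries (−4.28 ± 0.47, adjusted p = 1.37e-10). Emp1, a membrane protein of epithelia, was at 36, 90.9 and 45.3 CPM in old, against 483, 647 and 723 CPM in young libraries (−3.43 ± 0.50, adjusted p = 1.63e-07), with old library 4 the highest of the old. Htr2b, a serotonin receptor, was at 0.701, 2.23 and 0.951 CPM in old, against 17.4, 19.8 and 27.8 CPM in young libraries (−4.06 ± 0.51, adjusted p = 4.91e-09). Gpr183, which senses oxysterols, was at 0.538, 1.43 and 0.663 CPM in old, against 10.6, 12.4 and 16.4 CPM in young libraries (−3.90 ± 0.47, adjusted p = 1.36e-09). Cd28, better known as a T cell receptor for CD80 and CD86, was at 0.366, 1.04 and 0.438 CPM in old, against 10.0, 18.6 and 13.1 CPM in young libraries (−4.50 ± 0.44, adjusted p = 2.78e-12). In all 7 of these genes the groups did not overlap.

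Of 24 genes of LXR, PPAR and lipid handling, 3 rose and 7 fell. Apoe, a lipid carrier, was at 5070, 4050 and 5360 CPM in old, against 24700, 15000 and 13900 CPM in young libraries (−1.89 ± 0.24, adjusted p = 5.44e-09), with young library 2 the highest. Plin2, a coat of lipid droplets, was at 419, 473 and 468 CPM in old, against 1570, 1160 and 1360 CPM in young libraries (−1.59 ± 0.18, adjusted p = 2.15e-10). Fabp4, a fatty acid carrier, was at 149, 165 and 170 CPM in old, against 583, 529 and 512 CPM in young libraries (−1.75 ± 0.29, adjusted p = 3.29e-06). The receptor Pparg (−1.76 ± 0.43, adjusted p = 0.00103) and its target Angptl4 (−2.90 ± 0.34, adjusted p = 7.18e-10) fell, whereas Abcg1, which exports cholesterol, rose by 1.06 ± 0.22 and Scd2 by 1.24 ± 0.35. Of 23 sterol synthesis genes, 3 rose and 8 fell (median −0.32, −0.21 without old library 5), with Sc5d at −0.86 ± 0.16, Hmgcs1 at −0.85 ± 0.22 and Msmo1 at −0.73 ± 0.21, and with Pmvk (0.73 ± 0.12) and Mvd (0.55 ± 0.17) among those that rose. Called decreases of this list numbered 5 without old library 2, old library 5 or young library 3 and 4 without young library 4. Mvd was not called without old library 2 (adjusted p = 0.0634) or 5 (0.0534).

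Of 11 tested iron genes, of 12 listed, 1 rose and 4 fell. Tfrc, the transferrin receptor, was at 20.4, 26.3 and 22.2 CPM in old, against 82.9, 153 and 113 CPM in young libraries (−2.34 ± 0.26, adjusted p = 1.47e-10). Slc40a1, the iron exporter ferroportin, was at 3.03, 3.2 and 3.26 CPM in old, against 11.3, 9.14 and 9.63 CPM in young libraries (−1.66 ± 0.34, adjusted p = 8.39e-05). Ftl1, the light chain of ferritin, was at 3630, 4340 and 4330 CPM in old, against 11500, 8280 and 8610 CPM in young libraries (−1.21 ± 0.21, adjusted p = 6.39e-06), and Steap3 changed by −1.10 ± 0.18. Slc11a2, which carries iron across membranes, was the one that rose (0.41 ± 0.15, adjusted p = 0.0287), with overlapping groups. It was not called without old library 2 (adjusted p = 0.143), old library 5 (0.127), young library 2 (0.103) or young library 4 (0.0718). Of 17 tested clock genes, of 18 listed, 2 rose and 10 fell (median −0.62). Dbp, an output factor of the clock, was at 4.09, 3.63 and 4.25 CPM in old, against 15.5, 12.5 and 8.59 CPM in young libraries (−1.61 ± 0.19, adjusted p = 8.75e-10), Nr1d1 (REV-ERBα) at 0.955, 1.18 and 1.0 CPM in old, against 3.07, 4.44 and 3.16 CPM in young libraries (−1.77 ± 0.24, adjusted p = 4.61e-08), and Tef changed by −0.84 ± 0.11. Cry1, a repressor of the clock, rose by 0.68 ± 0.11 and Nfil3, which opposes Dbp, by 0.81 ± 0.16. Of 20 NRF2 targets, 2 rose and 5 fell (3 without old library 2, young library 3 or young library 4), a called share of 35.0%, against 31.2% of all genes. Gstm1 was at 57.6, 62.4 and 66.2 CPM in old, against 314, 349 and 356 CPM in young libraries (−2.45 ± 0.21, adjusted p = 8.45e-14). Prdx1 was at 3880, 2090 and 4340 CPM in old, against 1540, 1350 and 1580 CPM in young libraries (1.21 ± 0.29, adjusted p = 0.000677).

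Of 15 genes linked to senescence, 3 (Trp53, Mdm2 and Lmnb1) rose and 4 (Gdf15, Igfbp4, Mmp12 and Mmp13) fell. All 3 that rose lost their call in some fits. Here Trp53 was not called without old library 2 (adjusted p = 0.167), old library 5 (0.104), young library 3 (0.157) or young library 4 (0.0839). Likewise, Mdm2 was not called without old library 2 (adjusted p = 0.094) or young library 2 (0.103), and Lmnb1 was not called without old library 4 (adjusted p = 0.179) or young library 2 (0.191). Cdkn2a, the cell cycle inhibitor whose level is widely used as a mark of senescence, was at 2.74, 0.528 and 2.36 CPM in old, against 2.75, 1.46 and 0.36 CPM in young libraries (0.30 ± 0.57, adjusted p = 0.743), with overlapping groups and the lowest old value in library 4. Cdkn1a, which encodes p21, was at 108, 72.7 and 124 CPM in old, against 96.9, 68.6 and 77.7 CPM in young libraries (0.32 ± 0.21, adjusted p = 0.253), and Gdf15 fell (−1.46 ± 0.40, adjusted p = 0.00305). Of 37 proliferation genes, 4 (Ccne1, Mcm2, Mcm5 and Bub1b) rose and 1, Cdt1 (−0.78 ± 0.15, adjusted p = 3.39e-05), fell (2 without old library 4), against 31.2% called among all genes. Of these, Mcm2 was not called without old library 2 (adjusted p = 0.0724) or young library 2 (0.163). Mki67, a marker of dividing cells, was at 16.1, 26.5 and 14.9 CPM in old, against 8.17, 16.8 and 16.6 CPM in young libraries (0.47 ± 0.32, adjusted p = 0.28). Ccne1, a cyclin of the start of replication, was at 10.1, 8.42 and 9.62 CPM in old, against 2.15, 2.95 and 2.9 CPM in young libraries (1.81 ± 0.20, adjusted p = 6.81e-11).

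Markers of macrophage kinds did not move as sets. Of 14 macrophage identity genes, 4 rose and 6 fell (2 without old library 2), a called share of 71.4%, against 31.2% of all genes. Their summed CPM was 27800, 26200 and 31000 in old libraries, against 41100, 33300 and 33400 in young libraries. Adgre1, which encodes F4/80, was at 683, 978 and 692 CPM in old, against 851, 896 and 924 CPM in young libraries (−0.18 ± 0.21, adjusted p = 0.573). Of 18 genes of resident large peritoneal macrophages, 2 rose and 1 fell (2 without young library 4). Gata6, their defining transcription factor, was the one that fell, at 2.45, 2.76 and 2.06 CPM in old, against 8.14, 6.81 and 6.83 CPM in young libraries (−1.58 ± 0.38, adjusted p = 0.000769). F10, a clotting factor of these cells, was at 768, 344 and 879 CPM in old, against 155, 116 and 109 CPM in young libraries (2.39 ± 0.37, adjusted p = 6.14e-07), and the other riser was Timd4. The summed CPM of these 18 genes was 1180, 482 and 1350 in old libraries, against 744, 385 and 288 in young libraries, so the libraries that stand apart in their groups (old 4 and young 2) also differed here. Of 15 genes of monocyte-derived macrophages, 5 rose and 4 fell (2 without old library 2), with Ly6c2 at 97, 266 and 108 CPM in old, against 3.13, 10.3 and 7.37 CPM in young libraries (4.50 ± 0.77, adjusted p = 4.57e-06) and F13a1 at 5.35, 13.5 and 7.11 CPM in old, against 56.6, 80.9 and 82.6 CPM in young libraries (−3.08 ± 0.39, adjusted p = 5.07e-09).

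Other cell types were checked by their markers, and in RNA of whole cultures fewer cells of a type and less RNA per cell cannot be told apart. Of 21 B cell markers, none rose and 1, Cd22 (−0.43 ± 0.12, adjusted p = 0.00435), fell, and their summed CPM was 140, 150 and 162 in old libraries, against 175, 196 and 192 in young libraries. Of 33 T and NK cell markers, 8 rose and 3 (Cd4, Foxp3 and Klrb1c) fell (0 without old library 5 and 1 without old library 4, young library 2 or young library 4). The share called was 33.3%, against 31.2% of all genes. The summed CPM of the 33 was 44.1, 42.5 and 46.8 in old libraries, against 4.36, 6.04 and 7.07 in young libraries. Of the 3 that fell, Cd4 was not called without old library 4 (adjusted p = 0.0749), old library 5 (0.094), young library 2 (0.0581) or young library 4 (0.0539). Likewise, Foxp3 was not called without old library 2 (adjusted p = 0.0634), old library 5 (0.134) or young library 2 (0.201), and Klrb1c was not called without old library 4 (adjusted p = 0.0833), old library 5 (0.0574), young library 3 (0.078) or young library 4 (0.11). In old libraries most of that sum was Klrk1, an activating receptor, at 32.7, 34.3 and 34.2 CPM in old, against 0.277, 1.76 and 1.11 CPM in young libraries (4.99 ± 0.47, adjusted p = 8.99e-13). Cd3e, part of the T cell receptor complex, was at 0.102, 0.0797 and 0.0214 CPM in old, against 0.0115, 0.0578 and 0.17 CPM in young libraries, below 1 CPM in all 6 libraries. Of 10 dendritic cell markers, 4 (Clec9a, Xcr1, Batf3 and Ccr7) rose and 1 (Cd209a) fell (2 without old library 4 or young library 2), and their summed CPM was 194, 141 and 198 in old libraries, against 23.9, 37.9 and 33.5 in young libraries. Clec9a, a receptor for dead cells on some dendritic cells, made up most of it in old libraries, at 165, 109 and 171 CPM in old, against 1.05, 7.73 and 2.27 CPM in young libraries (5.32 ± 0.62, adjusted p = 7.75e-10), while Flt3, which defines dendritic cells, was at 0.559, 0.538 and 0.331 CPM in old, against 0.0691, 0.395 and 0.681 CPM in young libraries, below 1 CPM in all 6 libraries.

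Of 10 tested neutrophil markers, of 14 listed, 2 (S100a8 and Camp) rose, of which 1 was called without old library 5 or young library 2 or 3, and 4 (Mmp8, Mmp9, Cxcr2 and Ltf) fell. Of these, Camp was not called without old library 5 (adjusted p = 0.0673), young library 2 (0.0529) or young library 3 (0.0587), and Mmp9 was not called without old library 2 (adjusted p = 0.0791), old library 5 (0.0702) or young library 4 (0.0905). Mmp8, a collagenase of their granules, was at 2.55, 12 and 4.1 CPM in old, against 65.6, 74.2 and 94.9 CPM in young libraries (−3.65 ± 0.53, adjusted p = 1.23e-07). S100a8 was at 41.9, 44.5 and 47 CPM in old, against 10.9, 13 and 13 CPM in young libraries (1.85 ± 0.21, adjusted p = 2.70e-10), while its partner S100a9 was at 0.0203, 0.0897 and 0.0428 CPM in old, against 0, 0.106 and 0.0701 CPM in young libraries. Ly6g, Ngp, Elane and Mpo had too few counts to be tested. Of 18 mesothelial and fibroblast markers, none rose and 2, Upk3b and Krt19, fell, and their summed CPM was 158, 511 and 118 in old libraries, against 234, 651 and 690 in young libraries. Col1a1, a collagen of fibroblasts, was at 32.9, 154 and 20.8 CPM in old, against 44.9, 188 and 197 CPM in young libraries (−1.05 ± 0.80, adjusted p = 0.349), so that its level split the libraries within each group, with old library 4 among the high and young library 2 among the low. Without old library 4, Col1a1 was called (−2.40, adjusted p = 0.0415) and 6 members of the list fell, against 0 without old library 5 and 1 without young library 3 or 4. Of the 6 fits that leave out 1 library, only the fit without old library 2 called Krt19. Upk3b was not called without old library 5 (adjusted p = 0.0599). Of 6 tested endothelial markers, none rose and 2 fell, Vwf (−1.51 ± 0.43, adjusted p = 0.00438) and Kdr (−1.12 ± 0.44, adjusted p = 0.0479), of which Kdr was not called without old library 2 (adjusted p = 0.183), old library 5 (0.147), young library 3 (0.119) or young library 4 (0.0961). Their summed CPM was 46.9, 62.9 and 49.9 in old libraries, against 143, 160 and 135 in young libraries, most of it Vwf, and Cdh5, which defines endothelium, was at 0.193, 0.239 and 0.246 CPM in old, against 0.415, 0.202 and 0.46 CPM in young libraries. Of 3 tested platelet markers 1, Treml1, fell, which was not called without old library 2 (adjusted p = 0.0547), old library 4 (0.0704) or young library 2 (0.176), and edgeR called none of the tested markers of plasma cells, mast cells, eosinophils or red cells, apart from 1 mast cell gene without old library 4 and 1 eosinophil gene without young library 4. The shares called of the endothelial and platelet markers were 33.3% each, against 31.2% of all genes. The part of these other cells in the results above was not tested.

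The change with the age label in knock-in males was set beside those of knock-in females and of wild-type males, and these 3 comparisons share no library. Called genes numbered 6911 (31.2%) in knock-in males, 9474 (42.8%) in knock-in females, with 5 libraries a group, and 7894 (35.6%) in wild-type males. All 43 IFN-γ response genes rose in each, with medians of 4.59, 3.81 and 4.67. Of 5 sex-linked genes, 4 were called lower in old than in young knock-in females, with a median of −2.70. None was called in males of either genotype or in wild-type females (median −1.89), and the cause was not tested. The knock-in female libraries with this difference are those set against knock-in males below. The difference between the changes of knock-in and wild-type males was called by edgeR in 0 of 22147 genes (0%), with 2087 at an unadjusted p below 0.05. DESeq2 called 3, the predicted gene Gm6377 and the immunoglobulin segments Igkv8-16 and Ighv1-59. Between knock-in males and knock-in females, edgeR called 0 (0%), with 2357 at an unadjusted p below 0.05, and DESeq2 called 13. That edgeR count was 131 without old knock-in female library 1 and 1 without library 4 of that group. Lrrk2 changed by 2.52 ± 0.32 in knock-in males, by 2.18 in knock-in females and by 2.24 in wild-type males. Its change in knock-in males minus that in wild-type males was 0.28 ± 0.43 (adjusted p = 0.902), and minus that in knock-in females 0.34 ± 0.38 (adjusted p = 0.835), so no difference was detectable with these libraries. Of the mitochondrial genes, 6 fell in knock-in males, 4 in knock-in females and 0 in wild-type males, with no difference from knock-in males called. In wild-type females 10 of the 13 fell, with a median of −0.50. Proliferation genes that rose numbered 4, 10 and 4 of 37, and 21 in wild-type females.

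**Figure D5:**
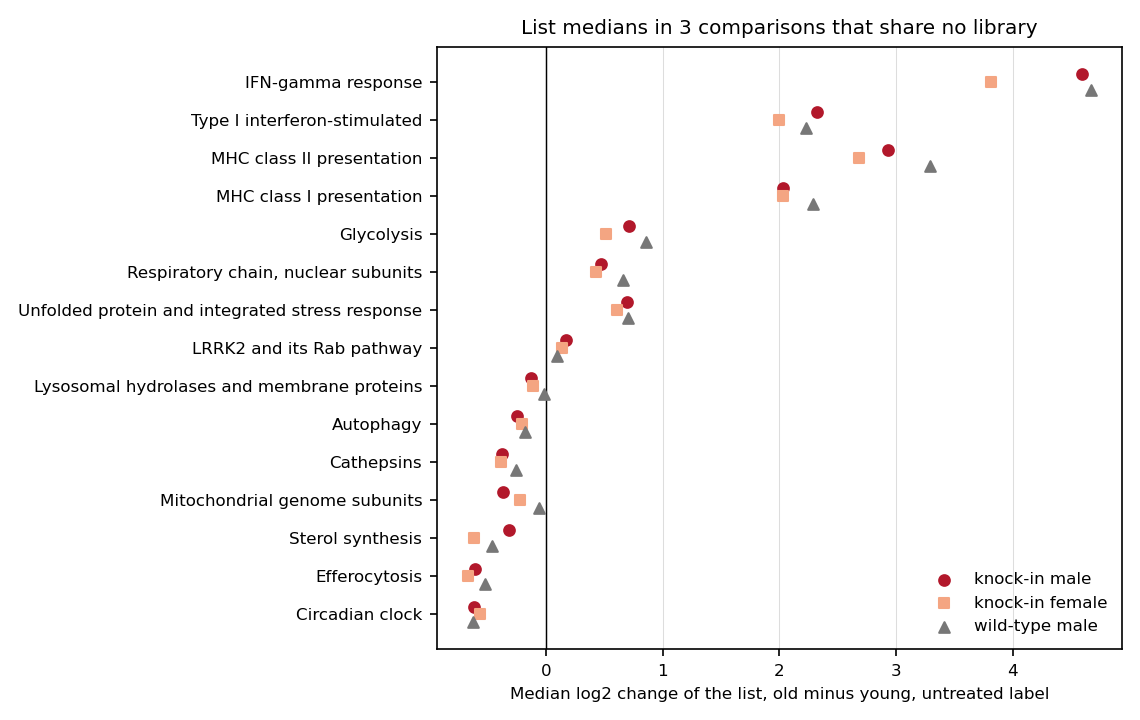
Median log2 change with the age label (old over young) of 15 gene lists in knock-in males, knock-in females and wild-type males, 1 point for each comparison. The IFN-γ response list stands at 4.59, 3.81 and 4.67, and edgeR called no gene for the difference from wild-type males or from knock-in females.

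The treatment names were compared within each age label, without pairing. Whether same-numbered libraries with and without the IFN-γ name share an animal was not tested. With a replicate block by column number, the counts given below became 18 in old and 8 in young knock-in males. Old knock-in males called untreated by name differed from those named as IFN-γ-treated in 23 genes (0.104%), 9 higher and 14 lower, with 1979 at an unadjusted p below 0.05 and 80 called by DESeq2. The count was 68 without old IFN-γ-named library 1, 4 without old library 2, 12 without old library 4 and 13 without old library 5. None of the 43 IFN-γ response genes was among them, and the list's median change was −0.01. Of 21 B cell markers 1 was called, Igkc, the constant part of the kappa light chain, which was lower in the libraries called untreated (log2 change −3.64), and the list's median was −1.84. Young knock-in males named as IFN-γ-treated differed from untreated ones in 7 genes (0.0316%), 5 higher and 2 lower, with 1299 at an unadjusted p below 0.05 and 26 called by DESeq2. The count was 1 without young IFN-γ-named library 2, 3 without young untreated library 2 and 0 without young untreated library 3 or 4. No IFN-γ response gene was called here, with a median of 0.60, and the median of the B cell list was 1.77.

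These treatment comparisons share no library, and 4 genes were called in both, 17.4% of the 23 and 57.1% of the 7. Each of the 4 moved the same way with the IFN-γ name. Bmpr1a, a receptor for bone morphogenetic proteins, Peak1os and ENSMUSG00000118607 were higher with that name at both age labels. Bmpr1a was at 3.59, 4.16 and 3.54 CPM in the 3 old libraries and at 7.90, 8.47, 6.50, 7.87 and 6.54 CPM in old libraries named as IFN-γ-treated. In young knock-in males it was at 10.7, 10.1 and 9.78 CPM with the IFN-γ name, against 3.95, 5.43 and 5.02 CPM in the untreated libraries. Rps4l, annotated as a transcribed pseudogene and related to a ribosomal protein, was lower with that name at both. ENSMUSG00000118607 was at 1.46, 0.688 and 1.97 CPM in the 3 old libraries and at 9.65, 10.2, 7.09, 5.89 and 5.89 CPM in old libraries named as IFN-γ-treated. In young knock-in males it was at 2.40, 1.80 and 1.96 CPM with the IFN-γ name, against 0.519, 0.154 and 0.310 CPM in the untreated libraries. Rps4l was at 15.8, 12.8 and 15.2 CPM in the 3 old libraries. In young knock-in males it was at 2.74, 3.67 and 3.74 CPM with the IFN-γ name and 11.9, 8.41 and 8.88 CPM without it. Peak1os was at 0.203, 0.339 and 0.224 CPM in the 3 old libraries. Its young values were 0.965, 0.909 and 0.916 CPM with the name and 0.323, 0.26 and 0.14 CPM without it. For Bmpr1a, Peak1os and Rps4l the 3 old libraries were closer to the untreated young ones. For ENSMUSG00000118607 old libraries 2 and 5 were closer to the young ones with the IFN-γ name, and old library 4 to the untreated ones. The 4 genes were chosen by these same comparisons, so their levels say nothing of which label entry holds.

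When the treatment entry is followed and the 3 old libraries are set against the 3 young knock-in males named as IFN-γ-treated, 6931 genes were called (31.3%). All 43 IFN-γ response genes were called higher in that comparison too. Lrrk2 was then at 157, 134 and 146 CPM in old libraries, against 47.6, 28.7 and 23.8 CPM in those young libraries. Its direction was the same whichever way the entry was read.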

How the data were processed

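The authors' deposited table of gene counts (56748 Ensembl genes, 63 libraries, not normalized) was analysed, and the deposited FPKM values (fragments scaled by gene length and depth) were read only to check the columns. Per the submitters' processing notes, STAR 2.7.9a, the genome GRCm39 and DESeq2 1.40.2 were used, and the labels' protocols give polyadenylated RNA, a directional library kit and paired reads. Here, all 63 libraries were fitted in 1 model with 1 coefficient for each of 16 groups by edgeR 4.0.16 (R 4.3.3) after its filter on low counts, which left 22147 genes and 99.992% of counts. TMM factors ran from 0.886 to 1.233. The quasi-likelihood F test was adjusted by Benjamini-Hochberg over all genes tested, with a threshold of 0.05, and standard errors are the log2 change over the root of F. The test was also run on simulated counts with changes in some genes of the old group alone. Libraries were simulated as independent, so that run does not cover libraries that stand apart or share an animal. Symbols matched 52073 gene identifiers in a GENCODE table. Depth sets the precision of low counts, and library totals are given with the results. Gene lists and members were chosen with earlier results of these data known. Named genes are Lrrk2, Xist, Ddx3y, up to 15 largest changes and 10 largest CPM differences each way, up to 5 called members of each list by smallest p, called members against a list's majority, and members of interest to the study. Alternatives were RLE or total scaling, no filter, DESeq2 1.42.0, a replicate block, fewer libraries in the fit and leaving out each library. Deviations from the group mean in same-numbered old and young libraries correlated at 0.0594 and 0.138 by column name. By title the values were 0.0594, 0.114 and −0.097. Differently numbered libraries ran from −0.209 to 0.172, so the numbers were not taken as pairs. Old and young labels name different ages, so these values say nothing of animals shared between treatment names. Libraries with and without the IFN-γ name were not checked in this way. A few genes of the lists are not reported here by name, although the counts and medians of the lists include them.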

Additional observations from a re-analysis of the deposited data

How the results depend on the processing

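Between old and young knock-in males, 6911 genes were called, and the count lay between 5662 and 6869 when any 1 of the 6 libraries was left out. It was 6977 with RLE factors, 6803 with library totals alone (3171 higher and 3632 lower), 6108 without the filter, 5368 with the 6 libraries fitted alone, 7256 with DESeq2, 5015 at an adjusted p under 0.01 and 2933 with a log2 change of at least 1. With a replicate block it was 6191 by column number and 6745 by title number, and the numbers were not taken as pairs. The difference from wild-type males was called in 0 genes, and in 3 by DESeq2. The difference from knock-in females was called in 0 genes, in 13 by DESeq2 and in 0 to 131 when 1 library was left out, with 131 without old knock-in female library 1. Old untreated against old IFN-γ-named knock-in males gave 23 genes, 11 with a replicate block by title number, 80 with DESeq2 and 4 to 68 when 1 library was left out. These were 68 without old IFN-γ-named library 1, 4 without old library 2, 12 without old library 4 and 13 without old library 5. Young IFN-γ-named against young untreated gave 7 genes, 0 with only those libraries fitted, 26 with DESeq2 and 0 to 7 when 1 library was left out, with 1 without young IFN-γ-named library 2, 3 without young untreated library 2 and 0 without young untreated library 3 or 4. The causes were not tested.

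Changes of sign arose in 5 named genes, none of them called. Ifngr2 was at −0.04 with library totals alone, −0.03 with a replicate block by column number and −0.07 to 0.08 when 1 library was left out. Jak1 was at 0.00 with library totals, −0.06 to 0.10 when 1 library was left out and −0.05 against the young libraries named as IFN-γ-treated. Against those libraries Cdkn2a was at −0.49, Il1b at −0.06 and Xist at 2.91, and Cdkn2a ran from −0.17 to 1.04 when 1 library was left out. With the replicate block by column number, 15 of 241 named genes lost their call, and with that by title number 4 did. Calls were gained by Ctsb and Il1b with the 6 libraries fitted alone, Tfeb with library totals, Rab35 with RLE factors and DESeq2, and Ifng, Rab35 and mt-Co1 against the young libraries named as IFN-γ-treated. With 3 libraries a group, small changes of weakly expressed genes were not detectable.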
